A study of Saccharomyces cerevisiae S288C with 18 samples.

Results

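The 5′ untranslated region (5′UTR) is the leader of an mRNA, between its capped 5′ end and the start codon. The count files held 5681 5′UTR rows among 23521 features, and each was set beside the reading frame of the same gene, an ORF row for 5420 genes and exon rows for the other 261. The measure was the ratio of 5′UTR reads to frame reads in the same library, which cancels the depth of the library and the level of the mRNA. RNA was fragmented after purification, so the ratio counts reads and does not show where on an mRNA a factor sat. Counts were not divided by length, because the files give no UTR coordinates, so ratios were compared between libraries and never between genes.

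The study sequenced RNA that copurified with factors of mRNA decay and translation, in Saccharomyces cerevisiae grown exponentially in rich medium (YPD). All strains derived from BY4741, a MATa strain with ura3, his3, leu2 and met15 deletions. The 4 tagged strains came from the systematic collection and carried a C-terminal TAP tag, with a HIS3 marker, on Upf1 (Upf1-TAP), Pab1 (Pab1-TAP), Lsm1 (Lsm1-TAP) or Rpl16a (Rpl16a-TAP). RNA was collected in 1 step on IgG magnetic beads. The control purification ("Control") used untagged BY4741 cells and the same beads, and Input was RNA of total extract. There were 3 replicates in each of 6 groups, thus 18 libraries. The sources used here do not say whether these came from separate cultures, so p-values measure the spread between libraries.

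Ribosomes usually load at the cap and scan the leader for the first suitable AUG. A leader that holds a short upstream reading frame (uORF) lets ribosomes terminate before the main frame, and such termination can bring in Upf1, a helicase that nonsense-mediated mRNA decay (NMD) depends on. Pab1 binds poly(A) tails and A-rich leaders, among them its own. Rpl16a sits in the large subunit of the ribosome, and Lsm1 belongs to the Lsm1-7 ring that binds mRNA 3′ ends and activates decapping, after which Xrn1 degrades the RNA from its 5′ end.

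Sequences of 2 sets of leaders are shown, from genes that are named in the results. GCN4, the activator of amino acid synthesis genes, has the best known uORFs in yeast, and its leader was the most read of the members outside the ribosomal DNA. The search of the 600 bases before its start codon for an ATG followed by an in-frame stop within 30 bases found 4 reading frames, which lie 361, 293, 176 and 151 bases before the start codon. They are shown 5′ to 3′ from the R64 RefSeq genome, minus strand, with start and stop codons in capitals.
GCN4 chrV:140113-140124: ATGgcttgcTAA
GCN4 chrV:140048-140056: ATGtgtTAA
GCN4 chrV:139928-139939: ATGtacccgTAG
GCN4 chrV:139903-139914: ATGtttccgTAA

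The second set holds the bases that end at the start codon of genes whose ratios are given below, with ATG in capitals. OST2, TCD2, PRT1 and RPL24B had high ratios in Upf1-TAP, SLA1 and DUR12 in both Upf1-TAP and Pab1-TAP, and AIP5 in Input alone. In OST2 a second ATG stands in the bases shown, in frame with the start codon and with no stop codon between them.
OST2 chrXV:516839-516868, minus strand: aattgtaacgaggaatacATGactaatATG
TCD2 chrXI:387535-387564, plus strand: atcattcaaccaaagtacaaaaataatATG
PRT1 chrXV:1017650-1017679, minus strand: ttccatattttggatagcgggaaactaATG
RPL24B chrVII:787777-787806, minus strand: ttcacagctttttaatttagaagaacaATG
SLA1 chrII:216364-216393, minus strand: gtgtgttatatacaaaagagctagagtATG
DUR12 chrII:642208-642237, minus strand: acaataaatttcagttttgattaaaaaATG
AIP5 chrVI:180741-180770, minus strand: attactctggattaaataaagagtgacATG

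Libraries held from 2790148 reads (Input replicate 3) to 16381719 (Pab1-TAP replicate 2). Ribosomal RNA made up over 1% of reads in replicate 3 of every group and in Control replicate 2, up to 67.0% in Rpl16a-TAP replicate 3 and 41.2% in Input replicate 3. The 5′UTR row of YLR154C-G, a gene inside the ribosomal DNA, took up to 96977 reads in 1 library and was left out of all sums. As a check of the strain label, ORF rows of the mating type alpha pheromone genes were at most 1.59 reads per 1000000 in a library and STE3, the receptor of alpha cells, at most 11.0. The genes of MATa cells had at least 18.7 (STE2, their receptor), 6.72 (BAR1), 4.24 (MFA1) and 3.58 (MFA2), and STE2 was above STE3 in each library.

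Leaders were thinly covered. A member had a median of 12 reads over all 18 libraries together, 903 members had none, and 3303 had reads but not 10 reads in 3 libraries. The 1475 kept 5′UTRs fell to 1465 pairs because 10 frames were too low. Of these pairs, 1144 passed the minimum without the Upf1-TAP libraries and 321 only through them. A pair of the second kind had to be high in Upf1-TAP. Calls of the ratio to the frame for Upf1-TAP are therefore given separately for the 2 kinds, with medians and shares for the first kind. Library medians, 5′UTR rows taken alone, the ratio to the 3′ untranslated region and calls under most other settings were not split and hold both kinds. For Pab1-TAP, 1331 pairs passed without its libraries and 134 only through them.

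The summed leader reads were highest in Upf1-TAP. Over all members, Upf1-TAP libraries had 1.99, 1.69 and 1.63 5′UTR reads per 100 frame reads in replicates 1, 2 and 3. Input had 0.379, 0.325 and 0.632, and Control had 0.723, 0.736 and 0.725. All 3 Upf1-TAP values lay above those of both references. This rise was not particular to leaders. The 3′ untranslated regions (3′UTRs) of 5458 of these genes had 12.049 ± 1.7463 reads per 100 frame reads in Upf1-TAP (SD, n = 3). Input had 4.5423 ± 1.5748 and Control 5.0341 ± 0.84687. Pab1-TAP had 10.02 ± 4.3747, Lsm1-TAP 6.0119 ± 1.0208 and Rpl16a-TAP 4.2608 ± 0.59289.

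Pab1-TAP gave 0.973, 0.717 and 1.30 5′UTR reads per 100 frame reads, and Lsm1-TAP gave 1.28, 0.820 and 0.906. Both sets were above every Input value, while Pab1-TAP replicate 2 fell below the Control values. Rpl16a-TAP gave 0.386, 0.350 and 0.547, within the Input range and below every Control value.

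These sums weigh abundant mRNAs most. The 568 frames with most reads held 82.7% of frame reads in Input, 61.7% in Control and 48.6% in Upf1-TAP, and these frames had fewer leader reads per frame read than the rest. Over the other 5112 frames the ratio was 2.87 ± 0.19 per 100 in Upf1-TAP, 1.68 ± 0.22 in Input and 1.39 ± 0.036 in Control (SD, n = 3). Over all 1465 kept pairs, the log2 ratio of the median pair was -4.73 ± 0.07 in Upf1-TAP, -4.44 ± 0.34 in Input and -5.01 ± 0.20 in Control (SD, n = 3). For Rpl16a-TAP it was -5.04 ± 0.57, for Lsm1-TAP -4.94 ± 0.11 and for Pab1-TAP -4.79 ± 0.53. All 3 Upf1-TAP libraries lay above all 3 of Control. Their mean was below that of Input, at the low edge of the Input libraries. Upf1-TAP replicates 1 and 2 (-4.734 and -4.804) lay below every Input library. These medians include the 321 pairs that had to be high in Upf1-TAP. Over the other 1144 the median log2 difference from Control was 0.0576. With 10 reads in each library, Upf1-TAP had -3.90 and Control -3.88. No rise over Control is drawn from these medians.

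**Figure D1:**
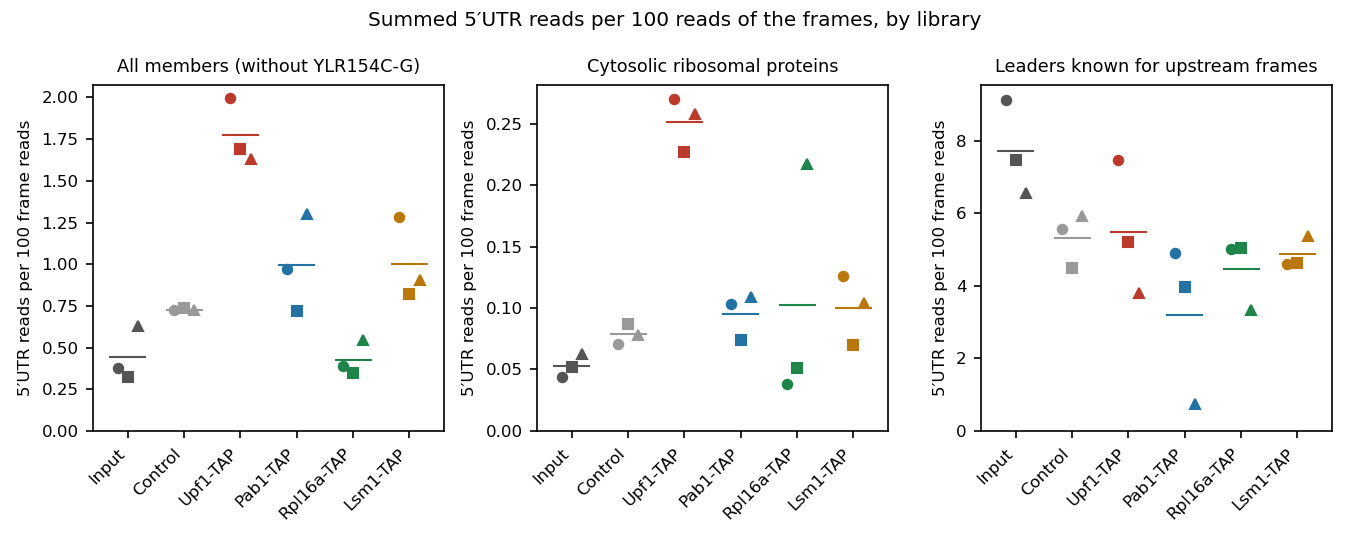
5′UTR reads per 100 frame reads in each of the 18 libraries, summed over all members (without YLR154C-G), over the genes of cytosolic ribosomal proteins and over 20 genes known for uORFs; points are libraries and lines the mean of 3. Upf1-TAP lies highest in the first 2 panels, and the uORF genes show no such separation.

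Upf1-TAP against Input asked which leaders had more or fewer reads per frame read in the purification than in total RNA. The ratio was higher for 175 of 1465 pairs (11.9% of those tested) and lower for 79 (5.39%), with a median log2 difference of -0.16 over all pairs (edgeR, adjusted p under 0.05), or -0.18 with pairs that had no read in Input set to a floor of 3 reads over the group. Among the higher pairs, 99 passed the count minimum without the Upf1-TAP libraries (8.65% of 1144) and 76 only with them. Of the lower pairs, 76 passed without them (6.64%) and 3 only with them. With the replicate number as a block, 231 were higher, 137 of the first kind and 94 of the second, and 162 lower, 159 and 3. Over the 1144 pairs the median log2 difference was -0.35.

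Both the 5′UTR row and the frame row took part in the calls. Of the 99 higher pairs of the first kind, 64 had a 5′UTR row that was itself higher and 53 had a frame row that was lower, after TMM scaling. Over all 175 the numbers were 100 and 97. In 16 of the 175, 1 of the first kind and 15 of the second, no Input library had a 5′UTR read, so their fitted differences depend on the prior count and set no bound. Of the 76 lower pairs of the first kind, 26 had a lower 5′UTR row and 36 a higher frame row. Taken alone, of 1475 5′UTR rows 295 had a higher and 153 a lower count in Upf1-TAP with TMM scaling, beside 22.2% and 15.9% of all 12582 features kept. These counts were not split by whether a row passed only through Upf1-TAP. Scaling by library totals gave 1008 and 3, so the direction of single rows depends on the scaling, which cancels in the ratio.

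**Figure D2:**
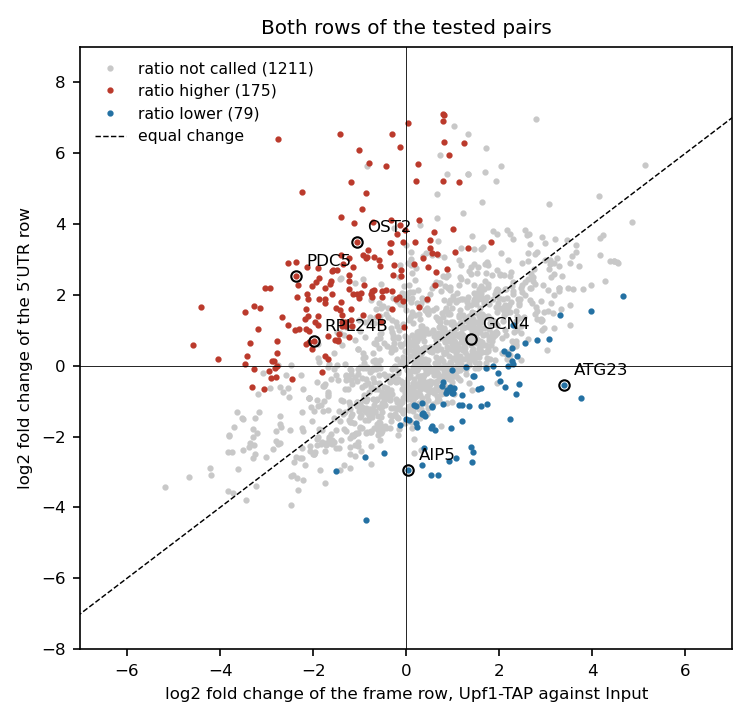
Log2 difference of the 5′UTR row (vertical) against that of the frame row (horizontal) between Upf1-TAP and Input for 1465 pairs after TMM scaling, with 175 pairs of higher ratio, 79 of lower ratio and 1211 not called in separate colours. Higher pairs lie above the diagonal, mostly with a 5′UTR difference above 0 and a frame difference below 0. Of the 175, 76 passed the count minimum only through the Upf1-TAP libraries.

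OST2 encodes a subunit of the oligosaccharyltransferase that glycosylates proteins in the endoplasmic reticulum. Its ratio was 80.4, 69.8 and 97.1 5′UTR reads per 100 frame reads in Upf1-TAP, against 4.33, 5.41 and 2.50 in Input and 35.1, 9.31 and 5.05 in Control. All Upf1-TAP libraries were above all libraries of both references, and Control replicate 1 stood apart from the other two. The log2 difference was 4.27 ± 0.61 (SE) against Input (edgeR adjusted p = 0.000197) and 2.78 ± 0.59 against Control (edgeR adjusted p = 0.00396). Pab1-TAP had 25.4, 20.5 and 13.8 per 100 and did not pass the test against Input (edgeR adjusted p = 0.0618), but did with the replicate block (edgeR adjusted p = 0.00625).

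PRT1, the eIF3b subunit of an initiation factor, had few leader reads outside Upf1-TAP. Its counts were 46, 80 and 37 in Upf1-TAP, 1, 3 and 0 in Input and 3, 5 and 2 in Control, with 2.81, 3.02 and 2.08 5′UTR reads per 100 frame reads in Upf1-TAP. The groups did not overlap, and the log2 difference of the ratio was 5.51 ± 0.64 (SE) against Input (edgeR adjusted p = 4.15e-05) and 3.93 ± 0.56 against Control (edgeR adjusted p = 0.000237). The frame of PRT1 was lower in Upf1-TAP than in Input, by -2.55 (edgeR adjusted p = 5.07e-05).

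TCD2 encodes a dehydratase that modifies tRNA. Its ratio was 44.4, 39.3 and 40.3 per 100 in Upf1-TAP, while Input had 0, 3 and 0 leader reads and Control had 3.09, 8.65 and 8.59 per 100. The Upf1-TAP libraries were higher and close together. The log2 difference was 5.85 ± 0.87 (SE) against Input (edgeR adjusted p = 0.000244), a value that rests on few Input reads, and 2.65 ± 0.63 against Control (edgeR adjusted p = 0.00835).

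PDC5 (pyruvate decarboxylase) had 5.83, 6.15 and 8.04 5′UTR reads per 100 in Upf1-TAP against 0.432, 0.0791 and 0 in Input, a log2 difference of 5.10 ± 0.67 (SE, edgeR adjusted p = 9.11e-05). Control, at 3.03, 2.16 and 0.571, lay between. Against Control the difference was 1.83 ± 0.56 (edgeR adjusted p = 0.0363), and this call was lost when Control replicate 2, Control replicate 3 or any 1 Upf1-TAP replicate was left out.

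HOT13, which encodes a mitochondrial intermembrane space protein, was higher than Input in Upf1-TAP (38.4, 29.2 and 247 per 100 against 2.58, 1.52 and 0) but not higher than Control. Its Control libraries had 29.4, 62.5 and 142 per 100, and the log2 difference between Upf1-TAP and Control was -0.10 (edgeR adjusted p = 0.979). The call against Input was lost without Input replicate 2. NFG1 was the contrary case, with 397, 628 and 110 leader reads beside 55, 87 and 1 frame reads in Upf1-TAP. Its log2 difference was 4.56 ± 0.75 (SE) against Input (edgeR adjusted p = 0.000617) and 4.17 ± 0.72 against Control (edgeR adjusted p = 0.00105).

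Control measures what the beads retain without a tag. Against it, 162 pairs had a higher ratio in Upf1-TAP (11.1%) and 8 a lower one (0.546%, edgeR). The median log2 difference was 0.24 over all pairs and 0.0576 over the 1144 kept without the Upf1-TAP libraries. Of the higher pairs, 103 passed the minimum without the Upf1-TAP libraries (9.0% of 1144) and 59 only with them. In 76 of the 103 the 5′UTR row itself was higher, and in 32 the frame row was lower. Both comparisons share the Upf1-TAP libraries, and 66 pairs of the first kind were higher in both, 66.7% of the 99 and 64.1% of the 103. BAP2, a permease of branched-chain amino acids, had 3.22, 3.66 and 2.21 5′UTR reads per 100 in Upf1-TAP, against at most 0.404 in Control and 0.247 in Input. The log2 difference from Control was 4.24 ± 0.76 (SE, edgeR adjusted p = 0.00139).

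HEM4, the uroporphyrinogen III synthase of the heme pathway, went the other way. Upf1-TAP had 2.89, 1.70 and 1.18 5′UTR reads per 100, Control 21.2, 19.0 and 49.5 and Input 20.7, 8.43 and 5.00. All Upf1-TAP values lay below all others, with log2 differences of -3.85 ± 0.53 (SE, edgeR adjusted p = 0.000237) from Control and -2.64 ± 0.58 (edgeR adjusted p = 0.00398) from Input, the latter lost without Input replicate 1. The gene starts 210 bases from SNR5, a small nucleolar RNA gene on the same strand.

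**Figure D3:**
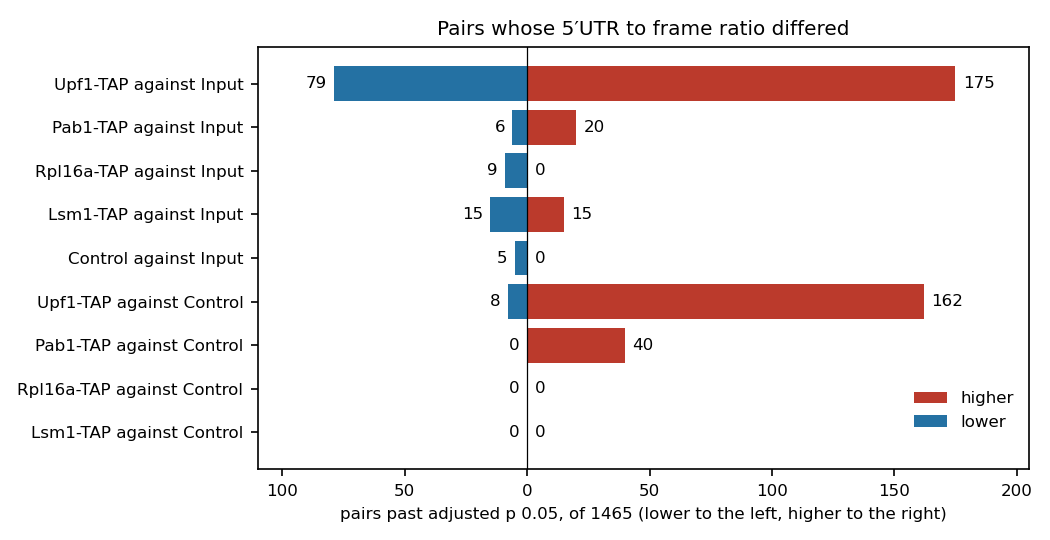
Number of pairs, of 1465, with a higher (right) or lower (left) 5′UTR to frame ratio past an adjusted p of 0.05 in each of 9 comparisons. Upf1-TAP had 175 higher pairs against Input and 162 against Control, Pab1-TAP 20 and 40, and Rpl16a-TAP had none higher in either. Of these, 76 and 59 for Upf1-TAP and 1 and 7 for Pab1-TAP passed the count minimum only through the libraries of that tag.

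Ribosomal protein genes, the most expressed group of growing yeast, were the longest list and gave the largest number of higher leaders against Input. By share of the pairs kept without Upf1-TAP reads, decay factors (27.3% of 11) and initiation factors (66.7% of 3) had more than the 20.5% given below. Of 137 members, 59 were kept, 39 of them without the help of Upf1-TAP reads. Of these 39, 8 were higher and none lower in Upf1-TAP than in Input, or 20.5%, beside 8.65% of all 1144 such pairs, and 16 with the replicate block, beside 137 of 1144. The median log2 difference of the 39 was 1.5, beside -0.35. The 8 were RPL1B, RPL18B, RPL24B, RPL33B, RPL36B, RPS10B, RPS19B and RPS23A. Against Control, 2 of the 39 were higher, RPL1B and RPL24B, or 5.13%, beside 9.0% of the 1144. The larger share of calls was thus seen against Input and not against Control. The median log2 difference of the 39 from Control was still the larger, at 1.12 beside 0.0576 in the 1144. The other 20 members passed only through Upf1-TAP and so had to be high there. Of these, 14 were called against Input and 8 against Control, beside 76 and 59 of all 321 such pairs. No result is drawn from them.

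RPL24B, a protein of the large subunit, was the best covered of the called ribosomal protein leaders. It had 17.4, 13.3 and 16.2 5′UTR reads per 100 in Upf1-TAP, 2.51, 2.13 and 2.62 in Input and 3.20, 1.62 and 2.30 in Control. Upf1-TAP was separate from both, by 2.69 ± 0.52 (SE, edgeR adjusted p = 0.00173) and 2.76 ± 0.52 (edgeR adjusted p = 0.00168) on the log2 scale. In Rpl16a-TAP its values of 0.843, 0.413 and 0.324 were below every other library, but the difference did not pass the test against Input (-2.17 ± 0.55, edgeR adjusted p = 0.0624) or Control (edgeR adjusted p = 0.413). With the replicate block the difference from Input passed it (edgeR adjusted p = 0.00785).

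RPL38, RPS27B and RPS29A passed the minimum only through Upf1-TAP, so their reads are given with no test, as examples chosen after their values were seen. RPL38 had 16, 17 and 22 leader reads in Upf1-TAP, none in Input and at most 8 in any other library. RPS27B had 18, 27 and 22 in Upf1-TAP, 0, 3 and 1 in Input and 10, 16 and 2 in Pab1-TAP. RPS29A had 12, 15 and 1 in Upf1-TAP, none in Input and 11, 40 and 3 in Pab1-TAP. Many ribosomal protein genes have a near-identical copy, and the sources used here do not give how reads that fit both were counted, so their frame counts are uncertain.

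Other well covered ribosomal protein leaders were not called. RPL14A had 0.704, 0.476 and 1.04 5′UTR reads per 100 in Upf1-TAP and 0.459, 0.464 and 0.315 in Input (edgeR adjusted p = 0.383). RPS0B and RPS7A were likewise not called (edgeR adjusted p = 0.83 and 0.0996). Summed over all 137 genes, Upf1-TAP had 0.270, 0.227 and 0.258 per 100, Input 0.0435, 0.0522 and 0.0624 and Control 0.0709, 0.0867 and 0.0785. Without these genes, the other 5543 members still had 2.26, 1.97 and 1.81 in Upf1-TAP against 0.550, 0.465 and 0.977 in Input.

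Of 25 translation initiation factors 5 were kept, 3 of them without Upf1-TAP reads. Of these 3, PRT1 and GCD7 were higher in Upf1-TAP than in Input, beside 8.65% of the 1144 such pairs. NIP1 (eIF3c) and GCN3 were called too, but were kept only through Upf1-TAP reads. GCD7 and GCN3 are subunits of the exchange factor eIF2B. GCD7 had 30, 37 and 24 leader reads in Upf1-TAP, 0, 3 and 0 in Input and 2 in each Control library. Its log2 difference was 3.93 ± 0.79 (SE, edgeR adjusted p = 0.0021) from Input and 2.14 ± 0.69 (edgeR adjusted p = 0.0454) from Control, and the second call was lost when any 1 Control or Upf1-TAP library was left out. NIP1 had 21, 23 and 16 leader reads in Upf1-TAP and 1 in each Control library. Summed over the 25 genes, the ratio was 0.241, 0.192 and 0.243 per 100 in Upf1-TAP, 0.0152, 0.0186 and 0.00949 in Input and 0.0477, 0.0458 and 0.0451 in Control.

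Decay factors were split. Of 37 genes 13 were kept, and 11 of them passed the minimum without the Upf1-TAP libraries. Of the 11, LSM2 and LSM5 of the Lsm ring and EDC2, an enhancer of decapping, were higher in Upf1-TAP than in Input (8.65% of the 1144), and the median of the 11 was -0.49. EDC1, kept only through Upf1-TAP, was called too. LSM5 had 26.7, 37.0 and 30.5 5′UTR reads per 100 in Upf1-TAP, 5.38, 7.35 and 2.26 in Input and 6.43, 12.6 and 10.5 in Control, without overlap. Its log2 difference from Input was 2.59 ± 0.46 (SE, edgeR adjusted p = 0.00123), and here the 5′UTR row differed by -0.16 and was not called, while the frame row was lower by -2.95. Against Control, LSM5, LSM7 and EDC2 were higher, as was CAF130, a subunit of Ccr4-Not kept only through Upf1-TAP, and the LSM5 call was lost without Control replicate 1 or 3 or Upf1-TAP replicate 2.

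The calls of the smaller lists rested on Upf1-TAP reads. CCW12 and SED1 of 7 kept cell wall genes and ADH1 of 2 kept genes of glycolysis and fermentation were higher than Input. So was NUG1 of 5 of ribosome biogenesis, beside 11.9% of all pairs. Each had passed only through Upf1-TAP, and of all 321 such pairs 76 were called higher. SED1 had 51, 49 and 20 leader reads in Upf1-TAP and 1, 0 and 0 in Input. Against Control, SED1, NUG1 and the chaperone gene HSP42, of the same kind, and the receptor gene STE2, kept without Upf1-TAP, were higher. By edgeR against Input, none was called among 9 kept chaperone genes, 2 histone genes and 2 elongation and termination factors. The log2 differences of the 9 chaperone genes ran from 0.61 to 2.58, with a median of 1.11 in the 6 kept without Upf1-TAP reads beside -0.35, and those of the histone genes were 0.35 and 4.10. With the replicate block SSA1 (edgeR adjusted p = 0.0186), the histone gene HHF1 (edgeR adjusted p = 0.0128) and the cell wall gene PIR1 (edgeR adjusted p = 0.0431) were higher.

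None of the genes known for uORFs was called against Input without the replicate block. Of 20, 13 were kept, and none depended on Upf1-TAP reads to pass. By edgeR 0 were higher or lower in any of the 5 comparisons. Of the 1144 pairs kept without Upf1-TAP reads, 8.65% were higher and 6.64% lower in Upf1-TAP. Of all pairs at most 1.37% were called in either direction in the other 4 comparisons. Among 13 genes, 0 calls is near these shares, so no result is drawn from it. The block added CLN3, lower in Upf1-TAP, and LEU4, higher in Pab1-TAP, and CLN3 in Lsm1-TAP. The 13 had Upf1-TAP differences from -1.13 to 0.80 and a median of -0.53, beside -0.35 in the 1144. GCN4 had 5537, 4286 and 709 leader reads in Upf1-TAP, which made 10.6, 8.16 and 3.78 per 100 frame reads. Input had 14.3, 12.2 and 8.41 and Control 11.2, 12.1 and 14.2. The Upf1-TAP values overlapped those of Input and lay below Control, with differences of -0.74 ± 0.54 (SE, edgeR adjusted p = 0.363) and -0.85 ± 0.53 (edgeR adjusted p = 0.357). The frame of GCN4 was higher in Upf1-TAP than in Input by 1.40 (edgeR adjusted p = 0.0353) and than in Control by 2.20 (edgeR adjusted p = 0.00421). CLN3, a G1 cyclin, had 14.3, 14.2 and 23.1 per 100 in Upf1-TAP against 32.3, 44.7 and 25 in Input (-1.13, edgeR adjusted p = 0.0947, and 0.0156 with the block), and YAP1, an oxidative stress activator, had 2.50, 2.99 and 2.16.

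**Figure D4:**
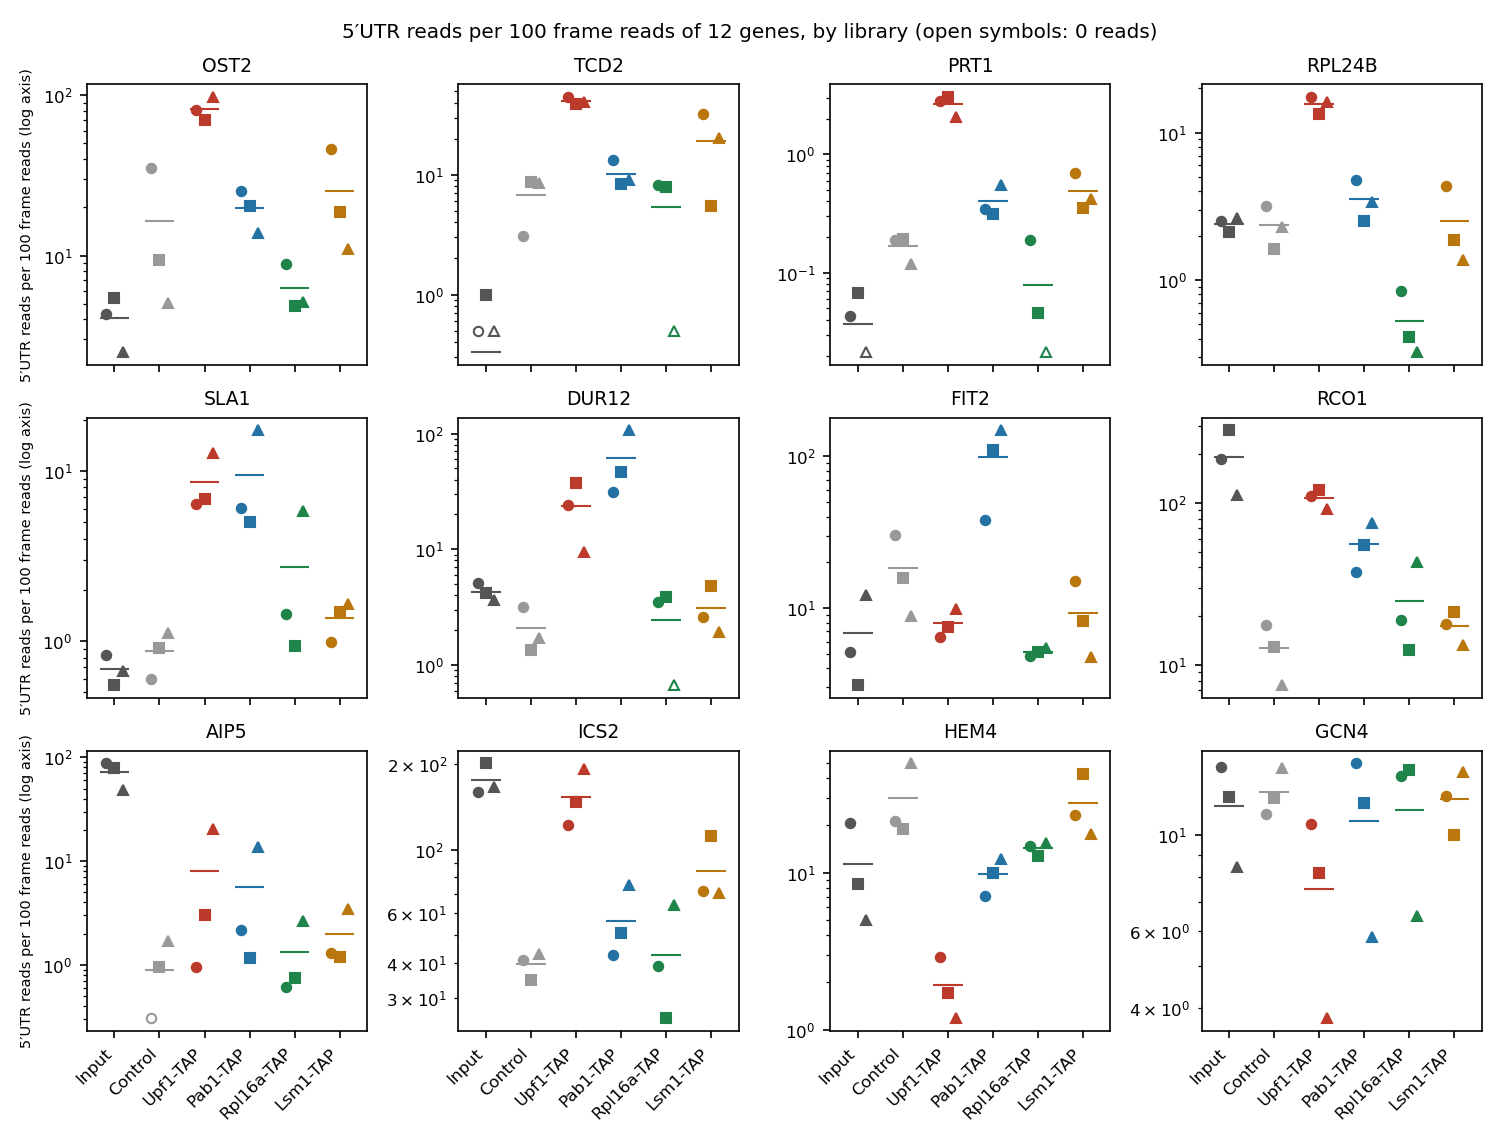
5′UTR reads per 100 frame reads (log axis) of 12 genes in each library; circles, squares and triangles are replicates 1, 2 and 3, lines are means and open symbols mark 0 reads. OST2, TCD2, PRT1 and RPL24B lie highest in Upf1-TAP, FIT2 in Pab1-TAP and AIP5 in Input, and GCN4 is lower in Upf1-TAP than in Control.

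Of 12 mRNAs known as NMD targets, 11 had a 5′UTR row and only ADR1 was kept. It was not called in Upf1-TAP (9.22, 6.42 and 9.55 per 100 against 17.5, 12.5 and 30.8 in Input, edgeR adjusted p = 0.145). Summed over the 11 genes, Upf1-TAP had 0.144, 0.0853 and 0.212 5′UTR reads per 100 frame reads, Input 1.05, 0.547 and 2.32 and Control 0.601, 1.04 and 0.987. All Upf1-TAP values were below all of both references. The sums rest on few leader reads, with 63, 50 and 36 in Upf1-TAP, 14, 16 and 5 in Input and 18, 20 and 17 in Control. Upf1-TAP had more leader reads than either reference, so its lower ratio came with more frame reads. Low values were seen in Pab1-TAP (0.196, 0.226 and 0.59 per 100) and Lsm1-TAP (0.346, 0.367 and 0.712) as well, and Rpl16a-TAP had 0.360, 0.404 and 1.36.

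The 8 kept leaders reported to start translation internally or to bind Pab1 gave 0 calls by edgeR in any comparison, and with the replicate block 1, GPR1, lower in Upf1-TAP than in Input (edgeR adjusted p = 0.0437). Summed over the 11 genes of this list, Pab1-TAP had 0.458, 0.407 and 0.0891 per 100, below Input (1.001, 0.800 and 0.929) and Control (1.003, 1.33 and 1.49). These sums rest on 227, 314 and 57 leader reads in Pab1-TAP, 79, 147 and 10 in Input and 126, 129 and 128 in Control. They weigh genes with many frame reads most, so they do not show that single leaders differed. The median log2 difference of the 8 from Input was -0.43, beside -0.18 over all pairs. Among them, PAB1 had 0.676, 0.904 and 1.86 5′UTR reads per 100 in Pab1-TAP and 1.01, 0.691 and 0.929 in Input (0.24 on the log2 scale, edgeR adjusted p = 0.859).

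The tagged genes and the transcripts the study followed added little. NAM7, the gene of Upf1, had at most 5 leader reads in a library and RPL16A at most 8, so neither was kept. LSM1 was kept and not called in Upf1-TAP (edgeR adjusted p = 0.413). HHT2 had at most 2 leader reads in a library. The 5′UTRs of RPL28 and PFK1 were kept and not called against Input in Upf1-TAP (edgeR adjusted p = 0.845 and 0.772).

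Fewer leaders were called in Pab1-TAP. Against Input the ratio was higher for 20 of 1465 pairs (1.37%) and lower for 6 (0.41%, edgeR), and with the replicate block for 60 and 31, of which 50 and 31 passed the minimum without the Pab1-TAP libraries. Of the 20, 19 passed the minimum without the Pab1-TAP libraries. In 12 of the 20 the 5′UTR row was itself higher, and in 10 the frame row was lower. Of the 26 calls, 0 were left without Input replicate 2 (170 at an unadjusted p under 0.05), 9 without Input replicate 1 and 14 without Pab1-TAP replicate 1. Against Control 40 pairs were higher (2.73%) and 0 lower (0.0%) by edgeR, with 169 at an unadjusted p under 0.05 in either direction. Of the 40, 33 passed the minimum without the Pab1-TAP libraries, and the count fell to 20 without Control replicate 2 and to 12 without Control replicate 3. The 2 comparisons share the Pab1-TAP libraries, and 8 pairs were higher in both, 40.0% of the 20 and 20.0% of the 40.

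FIT2, a cell wall mannoprotein that retains iron siderophores, had a higher ratio in Pab1-TAP and not in Upf1-TAP. Pab1-TAP had 38.2, 109 and 148 5′UTR reads per 100, Input 5.13, 3.10 and 12.2 and Control 30.1, 15.8 and 8.80. Upf1-TAP stayed at 6.48, 7.54 and 9.86. The log2 difference of Pab1-TAP was 4.10 ± 0.60 (SE) from Input (edgeR adjusted p = 0.00136) and 2.38 ± 0.58 from Control (edgeR adjusted p = 0.0247). The first call was lost without Input replicate 2, the second without Control replicate 2 or 3 or Pab1-TAP replicate 2 or 3.

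DUR12, the urea amidolyase, was high in both purifications. Its ratio was 31.5, 46.3 and 107 per 100 in Pab1-TAP and 24.0, 37.7 and 9.37 in Upf1-TAP, against 5.08, 4.15 and 3.64 in Input and 3.17, 1.34 and 1.72 in Control. Both purifications lay above both references. Pab1-TAP differed by 3.58 ± 0.65 (SE, edgeR adjusted p = 0.00753) from Input and 4.73 ± 0.63 (edgeR adjusted p = 0.000344) from Control, Upf1-TAP by 2.21 ± 0.65 (edgeR adjusted p = 0.0222) and 3.36 ± 0.62 (edgeR adjusted p = 0.00162). The Pab1-TAP call against Input was lost without Input replicate 2, and that of Upf1-TAP without Input replicate 1 or 2 or Upf1-TAP replicate 1 or 2.

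SLA1, a protein of the endocytic actin patch, was also high in both, with 6.06, 4.98 and 17.3 per 100 in Pab1-TAP and 6.36, 6.79 and 12.7 in Upf1-TAP. No Input or Control library exceeded 1.11. The differences from Input were 3.55 ± 0.67 (SE, edgeR adjusted p = 0.00753) for Pab1-TAP and 3.59 ± 0.67 (edgeR adjusted p = 0.0015) for Upf1-TAP. Without Input replicate 2 the Pab1-TAP call was lost. COS10, of a subtelomeric membrane protein family, had 130, 158 and 467 per 100 in Pab1-TAP, 23.3, 20.4 and 42.9 in Input and 9.72, 24.0 and 31.2 in Control. All Pab1-TAP libraries were above those of Input and Control, and the differences were 2.88 ± 0.59 (SE, edgeR adjusted p = 0.0106) from Input and 3.25 ± 0.57 (edgeR adjusted p = 0.00257) from Control. Its call against Input was lost without Input replicate 1 or 2.

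LEU4, the isopropylmalate synthase of leucine synthesis, was the 1 uORF gene called in the 9 comparisons without the replicate block. It had 7.32, 8.63 and 23.5 per 100 in Pab1-TAP and 1.72, 2.12 and 2.32 in Control, a log2 difference of 2.46 ± 0.53 (SE, edgeR adjusted p = 0.0109). Against Input (2.23, 2.29 and 5.92) the difference was 1.96 ± 0.53 (edgeR adjusted p = 0.0598, and 0.00932 with the block). The call against Control was lost without Control replicate 3.

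In Rpl16a-TAP 0 leaders were higher than in Input (0.0%) by edgeR, limma and DESeq2, and 9 were lower by edgeR (0.614%), with 243 pairs at an unadjusted p under 0.05 in either direction. With the replicate block 3 were higher and 37 lower, and in a fit of these 6 libraries alone 4 and 35. The median log2 difference was -0.67, the lowest of the 5 comparisons. Against Control there were 0 calls by edgeR, limma and DESeq2, with 95 pairs at an unadjusted p under 0.05. Rpl16a-TAP replicate 3 had no read in 718 of the kept leaders, and Input replicate 3 in 498. Without Rpl16a-TAP replicates 1, 2 and 3 the calls against Input were 3, 0 and 4, and without Input replicates 1, 2 and 3 they were 4, 3 and 5.

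Some leaders had high ratios in Input. AIP5, which takes part in actin assembly, had 87.5, 79.6 and 48.5 5′UTR reads per 100 in Input and at most 20.3 in any other library. All 5 purifications were lower by edgeR, Control by -6.22 ± 0.97 (SE, edgeR adjusted p = 0.00165) and Upf1-TAP by -3.89 ± 0.89 (edgeR adjusted p = 0.00516). The Pab1-TAP call was lost without any 1 of replicates 1 and 2 of Pab1-TAP or Input, and the Rpl16a-TAP call without Rpl16a-TAP replicate 2. RCO1, a subunit of the Rpd3S histone deacetylase, had more leader than frame reads in Input, at 186, 280 and 111 per 100. Control had 17.6, 12.9 and 7.50 and was lower by -3.97 ± 0.50 (SE, edgeR adjusted p = 0.00014).

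RCO1 was high in Upf1-TAP too, at 110, 121 and 91.0 per 100, and was not called against Input (edgeR adjusted p = 0.201) and was higher than Control by 3.09 ± 0.46 (SE, edgeR adjusted p = 0.000318). SLS1, a mitochondrial protein, had 276, 272 and 533 in Input and 19.2, 32.0 and 21.4 in Upf1-TAP, which was lower by -3.68 ± 0.67 (SE, edgeR adjusted p = 0.00142). Control, at 11.8, 40.7 and 15.9, was lower as well (-4.01 ± 0.72, edgeR adjusted p = 0.00719).

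ICS2, a gene of unknown biochemical function, repeated the RCO1 pattern with smaller differences. Its ratio was 160, 201 and 167 5′UTR reads per 100 in Input and 122, 147 and 192 in Upf1-TAP, but 41.0, 34.8 and 42.9 in Control. Upf1-TAP overlapped Input and lay above Control by 1.94 ± 0.39 (SE, edgeR adjusted p = 0.00252). ATG23, of the autophagy machinery, followed AIP5 instead, with 210, 215 and 250 in Input and 7.68, 15.6 and 25.5 in Upf1-TAP, a log2 difference of -3.91 ± 0.94 (SE, edgeR adjusted p = 0.0072). KNH1, a cell wall protein, was also low in Upf1-TAP and Control, at most 7.51 and 20.5 per 100, while Pab1-TAP kept 63.0, 54.7 and 392 beside 60.0, 47.1 and 133 in Input. Its Pab1-TAP ratio was higher than Control by 3.42 ± 0.82 (SE, edgeR adjusted p = 0.023), a call lost without Control replicate 1 or 3.

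Few pairs were called between the untagged purification and Input. The median log2 difference over all pairs was -0.34, and the replicate block gave 29 calls. Few calls thus do not show that few pairs differed. Control against Input had 0 higher (0.0%) and 5 lower pairs (0.341%, edgeR, 183 at an unadjusted p under 0.05), and the calls were 10 without Control replicate 1, 3 without Control replicate 2, 3 without Input replicate 2 and 9 without Input replicate 3.

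Lsm1-TAP had 15 higher and 15 lower pairs against Input (1.02% each, edgeR) and 0 against Control by edgeR, limma and DESeq2, with 83 at an unadjusted p under 0.05. TCD2 and PDC5 were among the higher, AIP5 and RCO1 among the lower. TCD2 had 32.0, 5.51 and 20.4 per 100 in Lsm1-TAP, 4.49 ± 0.92 (SE, edgeR adjusted p = 0.0118) above Input and 1.29 ± 0.66 above Control (edgeR adjusted p = 0.874). That call was lost without Lsm1-TAP replicate 1 or Input replicate 1 or 2. The 30 calls became 6 without Lsm1-TAP replicate 1, 9 without Input replicate 1 and 5 without Input replicate 2.

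The other end of the mRNA gave a direct comparison. For 1059 genes both UTRs passed the minimum, and the 5′UTR to 3′UTR ratio in Upf1-TAP against Input was higher for 59 (5.57%) and lower for 103 (9.73%) by edgeR. These genes include any whose leader passed only through the Upf1-TAP libraries and so had to be high there. The calls were not split by this, so no result is drawn from the 59. In Pab1-TAP the 5′UTR to 3′UTR ratio was higher for 7 (0.661%) and lower for 53 (5.0%). Rpl16a-TAP had 0 higher (0.0%) and 2 lower (0.189%), Lsm1-TAP 1 (0.0944%) and 11 (1.04%), and Control 0 (0.0%) and 1 (0.0944%), with 155, 197 and 137 pairs at an unadjusted p under 0.05. The replicate block raised the calls to 91 higher and 162 lower in Upf1-TAP, to 19 and 119 in Pab1-TAP and to 1 and 36 in Rpl16a-TAP. Without Input replicate 2 the total calls fell from 162 to 58 in Upf1-TAP and from 60 to 1 in Pab1-TAP. Without Input replicate 1 they were 105 in Upf1-TAP and 19 in Pab1-TAP. Leaving out Upf1-TAP replicates 1 and 2 gave 101 and 95, and leaving out Pab1-TAP replicates 1 and 3 gave 16 and 36. The 12 Lsm1-TAP calls became 2 and 5 without Lsm1-TAP replicates 1 and 3, and 0 without Input replicate 1 or 2 (176 and 112 at an unadjusted p under 0.05).

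What the called leaders shared in sequence was described from the R64 genome. The 100 bases before the start codon held an ATG on the sense strand in 47.5% of the 99 leaders that were higher in Upf1-TAP than in Input and kept without its reads, in 22.4% of the 76 lower and in 29.4% of all 1144 such pairs. It was 46.7% in the 321 pairs kept only through Upf1-TAP and 50.8% in all members. Within those 321 the order was the other way, with 39.5% in the 76 higher and 48.8% in the 242 not called. Among the 103 higher than Control it was 39.8%. The median content of A was 40% in the higher and 34% in the lower leaders, beside 37% in the 1144. These windows are not the counted UTRs, whose ends the files do not give.

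The called leaders also differed in surroundings. The gene body was shorter in the higher group, with a median coding length of 978 bases in the 99 pairs, against 1575 in the 76 lower and 1401 in the 1144. The upstream neighbour lay within 300 bases in 27.3% of the higher, 15.8% of the lower and 11.99% of the 1144 pairs. SLA1 and PRT1 are cases, with LDB7 and PRE10 at 220 and 227 bases on the same strand, while the neighbours of TCD2, RCO1 and OST2 were 355, 508 and 800 bases away. The part of neighbouring transcripts in these ratios was not tested.

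The number of calls depended on the libraries used. With the libraries of over 1% ribosomal RNA left out, a choice made after seeing the data that leaves 1 Control library assumed to vary like the others, the ratio of Upf1-TAP rose in 251 pairs and fell in 179 against Input and in 79 and 5 against Control. Pab1-TAP then had 61 and 102 against Input and 10 and 0 against Control. In the main comparison of Upf1-TAP with Input, calls fell from 254 to 136 without Input replicate 1 and to 96 without Input replicate 2, and 169 without Upf1-TAP replicate 1. Against Control they fell from 170 to 114 without Control replicate 2 and 83 without Control replicate 3.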

How the data were processed

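RNA of 18 libraries, 3 in each of 6 groups, was sequenced with a stranded kit after removal of ribosomal RNA. Per the labels and the study's methods, the authors trimmed reads with cutadapt 1.16, aligned them with STAR 2.7 to the R64 genome of strain S288C, and deposited counts of reads per feature (whole numbers, not normalized) from featureCounts of Subread 1.6.2. The strand setting, the treatment of overlapping features and the UTR coordinates are not given in the sources used here.

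Each 5′UTR row was joined to the frame row of its systematic name. Pairs with at least 10 reads in 3 libraries in both rows were tested. The 2 rows of each library entered 1 edgeR 4.0.16 quasi-likelihood fit over all 18 libraries, in which each library had its own term and each group a ratio term (36 columns, 12 residual degrees of freedom). Benjamini-Hochberg adjustment ran over all pairs tested, with a threshold of 0.05. Differences of single rows came from a fit to all 12582 features kept, with TMM scaling. Medians used log2 ratios with a pseudocount of 0.5. Tested on simulated data for Upf1-TAP against Input (1465 genes, 200 changed), the fit called 28% of pairs raised by 2 on the log2 scale, 16% of those lowered by 2, 64% and 50% at 3, and 0.4% of the unchanged.

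Same-numbered libraries deviated together in Upf1-TAP and Input (correlations 0.2, 0.136 and 0.218 for replicates 1, 2 and 3), in Pab1-TAP and Input (0.126, 0.213 and 0.23) and in Rpl16a-TAP and Input (0.214, 0.161 and 0.312), so these are taken as pairs and their block values are given. The pairing comes from the replicate numbers in the labels and this check.

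Genes were named by a rule: in each comparison the largest changes among pairs past the threshold with at least 20 reads a library on average and groups that did not overlap, the 10 most read 5′UTRs, the tagged genes, the transcripts the study followed, all kept members of the uORF, internal start and NMD lists, and up to 4 of the most read in each other list. Other names were chosen after their values were seen. Members and gene lists were chosen with earlier results of these data known. Alternatives were limma 3.58.1 on log2 ratios, DESeq2 1.42.0, other count minimums, a replicate block, fits to 6 libraries, library totals as scaling and the omission of each replicate, in R 4.3.3. Sequences and neighbours came from the R64 RefSeq reference, in which 5676 of 5681 members were found.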

Additional observations from a re-analysis of the deposited data

How the results depend on the processing

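Calls of the ratio to the frame are given in the order Upf1-TAP, Pab1-TAP, Rpl16a-TAP, next Lsm1-TAP and Control against Input, then Upf1-TAP and Pab1-TAP against Control (254, 26, 9, 30, 5, 170 and 40). With the replicate block they were 393, 91, 40, 134, 29, 266 and 66, and of 873 named gene comparisons 104 were called without the block, all 104 also with it, and 52 more only with it. Same-numbered libraries did not pass the check for Lsm1-TAP and Control against Input and for all groups against Control. This does not show that they were unpaired. For Lsm1-TAP and Control against Input, 3 and 2 of the 3 tagged or control libraries correlated best with the Input library of their own number. Without the libraries of over 1% ribosomal RNA, a choice added after seeing the data, they were 430, 163, 125, 171, 47, 84 and 10. A minimum of 10 reads in each library left 33 pairs and 0 calls in all 7 by edgeR. For Rpl16a-TAP and Lsm1-TAP against Control every setting gave 0 calls, except 4 for Rpl16a-TAP in a fit of the 6 libraries alone. That fit gave 9 for Pab1-TAP, 39 for Rpl16a-TAP and 12 for Control against Input, and 6 for Pab1-TAP against Control. limma gave 17 for Pab1-TAP and 13 for Control against Input and 97 for Upf1-TAP against Control. DESeq2 gave 22 for Rpl16a-TAP and 15 for Control, and a minimum of 1 read in 3 libraries gave 9 for Control. Leaving out replicates gave 17 to 370, 0 to 96, 0 to 85, 0 to 109, 0 to 33, 29 to 200 and 0 to 43, and 0 to 0 for Rpl16a-TAP and Lsm1-TAP against Control. The lowest values came without replicate 2 of all groups. Of 104 named calls, all kept their direction, 16 were still past the threshold without replicate 2 and 95 without replicate 3.

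Calls of the 5′UTR to 3′UTR ratio against Input, in the same order (162, 60, 2, 12 and 1), were 253, 138, 37, 85 and 23 with the replicate block and 265, 140, 88, 94 and 10 without the libraries rich in ribosomal RNA. With 10 reads in each library they were 3, 4, 2, 3 and 3. For Pab1-TAP a minimum of 1 read in 3 libraries gave 16. For Rpl16a-TAP limma, DESeq2 and the 6 libraries alone gave 9, 11 and 8. For Lsm1-TAP the last pair gave 19 and 46, and for Control limma gave 0, DESeq2 8 and the 6 libraries 19. Leaving out replicates gave 3 to 238, 1 to 104, 0 to 69, 0 to 67 and 0 to 15.

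Calls of 5′UTR counts alone (448, 154, 70, 142 and 75) were 1011, 680, 25, 632 and 225 with library totals as scaling. The replicate block gave 284, 192, 298 and 179 for Pab1-TAP, Rpl16a-TAP, Lsm1-TAP and Control, and the omission of libraries rich in ribosomal RNA 279, 256, 355 and 118. The 6 libraries alone gave 54 for Pab1-TAP and 44 for Rpl16a-TAP, for which DESeq2 gave 135 and a minimum of 1 read in 3 libraries 43. Leaving out replicates gave 37 to 566, 0 to 236, 0 to 200, 0 to 301 and 0 to 162.

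The log2 ratio of the median pair, in the order Input, Control, Upf1-TAP, Pab1-TAP, Rpl16a-TAP, then Lsm1-TAP (-4.44, -5.01, -4.73, -4.79, -5.04 and -4.94), was -3.45, -3.88, -3.90, -3.94, -3.95 and -4.02 with 10 reads in each library and -2.53, -3.02, -3.002, -2.83, -3.34 and -3.17 with a mean of at least 50 reads, added after seeing the data. A pseudocount of 5 gave -3.24, -4.23, -4.50, -3.89 and -4.52 without Pab1-TAP. Summed reads gave -6.03, -5.38, -4.38, -6.055 and -5.08 for the same groups. ORF rows alone gave -4.65 for Upf1-TAP. Leaving out replicates gave -4.63 to -4.29, -5.08 to -4.89, -4.77 to -4.70, -5.10 to -4.62, -5.37 to -4.86 and -5.004 to -4.90. Input was highest under each setting but the summed reads, and there Upf1-TAP was. The cause of these shifts was not tested. Depth limited the data: 903 of 5681 members had no read.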
